A study of Mus musculus with 15 samples.

Results

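The genes described here are 8 members of the PI3K-AKT signaling pathway, and they were chosen by name as activators and phosphatases of that pathway, with Phlpp1 included because its H3K27ac peaks form the largest cluster in the list. The peaks were selected by position. A peak belonged to a gene when it overlapped the gene's RefSeq span or 50 kb either side, and it was counted as promoter (within 2 kb of a transcription start site), gene body or flank, in that order. This gave 414 of the 122375 peaks of the list. The phosphatases were Phlpp1, Phlpp2 and Inpp4b, with 267 peaks, and the activators were Pik3ca, Pik3r1, Akt1, Akt2 and Mapkap1, with 147 peaks. Because the peaks themselves chose Phlpp1, its density is a description and carries no test. At the 50 kb limit, the outermost peaks counted were 48.4 kb from Pik3ca and 48.0 kb from Akt1, with folds of 4.79 and 6.08, and the nearest left out were 50.2 kb from Mapkap1 and 50.3 kb from Phlpp2, with folds of 5.22 and 5.97.

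In fusion-positive rhabdomyosarcoma (FP-RMS), a cancer with skeletal muscle character, the oncogenic driver is the fusion of PAX3 with FOXO1 (P3F). The series held 15 CUT&RUN libraries of mouse FP-RMS tumors: 6 H3K27ac and 3 IgG libraries of MCP tumors, and 3 H3K27ac and 3 IgG libraries of TCP tumors. MCP mice carried Myf6-Cre, which acts in myogenic cells, and TCP mice carried Tek-Cre, which acts in endothelial cells. Both models shared the alleles Cdkn2a(Flox/Flox), Pax3(P3Fm/P3Fm), spelled Pax(3P3F/P3F) in the labels, and R26-tdTom. Cre thus removed Cdkn2a, turned on P3F and marked the cells with tdTomato, and live tomato-positive tumor cells were sorted for nuclei. The peak list analyzed here belongs to the H3K27ac library MCP replicate 5, so there are no replicates, and TCP tumors and the other MCP libraries were not analysed here. Of 10 myogenic marker genes, Myf6 and Pax3 had a promoter peak and the others, Myod1 and Myog among them, had none. Both genes are tied to the alleles of the model, since the Cre is Myf6-Cre and the paper places P3F at the Pax3 locus. Their peaks are therefore no independent sign of myogenic cells. None of 8 endothelial markers and 1 of 6 leukocyte markers, Cd68, had a promoter peak, and 45.6% of all protein-coding genes did, so the myogenic share too was below that of all genes.

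CUT&RUN uses an antibody to bring a nuclease to chromatin and sequences the fragments it releases, H3K27ac is a histone mark found at active promoters and enhancers, and IgG gives the background. In the pathway, PI3K adds a phosphate to membrane phosphoinositides, which draws AKT to the membrane, where PDK1 and the mTORC2 complex phosphorylate it. Phosphatases act against this at more than one level: INPP4B removes a phosphate from the lipid, and PHLPP1 and PHLPP2 remove the phosphate that mTORC2 places on AKT. Signaling through this pathway promotes growth, survival and glucose uptake in many tissues, skeletal muscle included.

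The bases at the summits, where fragments were most numerous, are shown because these are the sites on which the values below rest. For each gene they come from the strongest promoter peak, or from the strongest gene body peak in Inpp4b, which had no promoter peak, and in Mapkap1, where both promoter peaks were weak. The strongest intron peak of Phlpp1 is added, and it and the Mapkap1 intron peak were chosen after their values were seen. The summit and up to 75 bases on either side were read on the plus strand of mm10, and stretches inside exons of any RefSeq transcript were left out. The summit of the Phlpp2 promoter peak lay in such a stretch and is not shown. The bases of the Phlpp1 promoter peak lie past the 2 kb window, which that peak reaches only by its edge. Capitals mark a match, on either strand, to CAGCTG (the E-box bound by MYOD1), TGTTTAC (FOXO), TGANTCA (AP-1), GTCACG (the core of a paired-domain site) or TAATTA (the core of a homeodomain site).
Phlpp1 promoter peak, chr1:106174037-106174187: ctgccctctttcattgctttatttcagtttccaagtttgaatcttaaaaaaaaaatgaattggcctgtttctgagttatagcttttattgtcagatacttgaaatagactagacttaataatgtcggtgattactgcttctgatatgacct
Phlpp1 intron peak, chr1:106288838-106288988: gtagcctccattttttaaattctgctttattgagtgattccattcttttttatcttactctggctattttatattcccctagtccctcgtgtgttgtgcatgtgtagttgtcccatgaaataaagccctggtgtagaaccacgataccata
Inpp4b intron peak, chr8:81854572-81854709: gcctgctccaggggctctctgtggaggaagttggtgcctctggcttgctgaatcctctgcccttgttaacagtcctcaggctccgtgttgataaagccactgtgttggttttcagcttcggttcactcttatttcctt
Pik3ca promoter peak, chr3:32396661-32396811: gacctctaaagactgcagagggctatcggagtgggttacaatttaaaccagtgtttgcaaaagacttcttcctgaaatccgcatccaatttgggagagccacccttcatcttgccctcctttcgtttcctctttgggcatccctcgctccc
Pik3r1 promoter peak, chr13:101767059-101767189: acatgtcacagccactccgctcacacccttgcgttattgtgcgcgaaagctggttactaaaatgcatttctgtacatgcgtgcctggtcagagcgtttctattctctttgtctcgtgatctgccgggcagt
Akt1 promoter peak, chr12:112673027-112673177: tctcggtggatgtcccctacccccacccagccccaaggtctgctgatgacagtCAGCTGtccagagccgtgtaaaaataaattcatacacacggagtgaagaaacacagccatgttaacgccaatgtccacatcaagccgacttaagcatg
Akt2 promoter peak, chr7:27605938-27606051: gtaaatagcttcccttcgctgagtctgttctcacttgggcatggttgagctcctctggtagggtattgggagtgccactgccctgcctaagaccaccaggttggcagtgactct
Mapkap1 intron peak, chr2:34441852-34442002: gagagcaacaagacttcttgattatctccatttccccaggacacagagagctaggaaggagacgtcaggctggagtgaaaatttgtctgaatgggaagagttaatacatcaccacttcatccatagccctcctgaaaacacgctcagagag
Of the 8 stretches, the promoter peak of Akt1 held the E-box letters, and the others held none of the 5 motifs. The E-box letters were present in 7.64% of the summit windows of that length in the whole list, the FOXO letters in 2.40%, AP-1 in 5.77%, the paired-domain core in 1.95% and the homeodomain core in 4.27%. The AP-1 letters and the paired-domain core can share bases.

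All 8 genes had at least 1 peak in the span or flanks, as did 77.8% of the 21000 protein-coding genes, and 7 of the 8 had a promoter peak, as did 45.6% of these genes. The gene without a promoter peak was Inpp4b. Phlpp1 had 226 peaks, Pik3ca 59, Mapkap1 33, Akt2 31, Inpp4b 22, Akt1 20, Phlpp2 19 and Pik3r1 4. Phlpp1, chosen for its number of peaks, held 84.6% of the phosphatase peaks. The median peak of the list rested on 13 fragments over its summit, recovered from the caller's columns, which is a relative counting error of 27.7%.

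**Figure D1:**
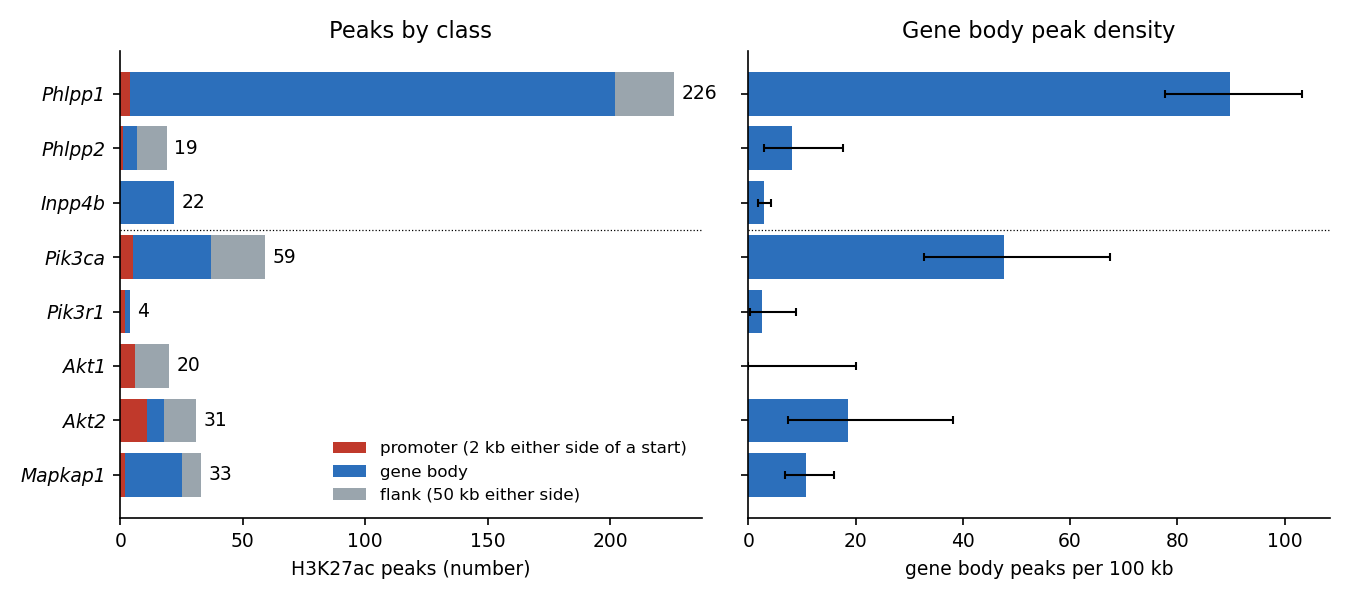
Number of H3K27ac peaks of each gene by class (left) and gene body peaks per 100 kb (right), with phosphatases above the dotted line and activators below. Bars on the right carry exact Poisson 95% intervals, which cover counting error only and treat peaks as independent. Phlpp1 stands apart with 226 peaks and 89.8 body peaks per 100 kb, and Pik3ca follows with 47.7.

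Phlpp1, which encodes the phosphatase that acts on AKT at the site of mTORC2, spans chr1:106171869-106394245 on the plus strand. It had 4 promoter, 198 gene body and 24 flank peaks. Its body density was 89.8 peaks per 100 kb (Poisson interval 77.8 to 103), and peaks covered 40.7% of the body sequence. Such density intervals, here and below, treat peaks as independent. Peaks often lay in groups, so the intervals can be too narrow. Among the 2222 protein-coding genes with bodies of 100 kb or more, whose median was 2.27 peaks per 100 kb, Phlpp1 ranked 3 by density and 2 by covered share. Hmga2, which encodes an architectural chromatin protein, had 136 peaks per 100 kb and Bcar3 had 96.7. Below Phlpp1 came Mbnl2, a regulator of splicing, with 84.0, the homeobox gene Meis1 with 78.4, Vgll4 with 78.0, Shb with 75.8 and the cadherin gene Cdh6 with 75.5. By number of body peaks, Msi2 with 227 exceeded Phlpp1.

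**Figure D2:**
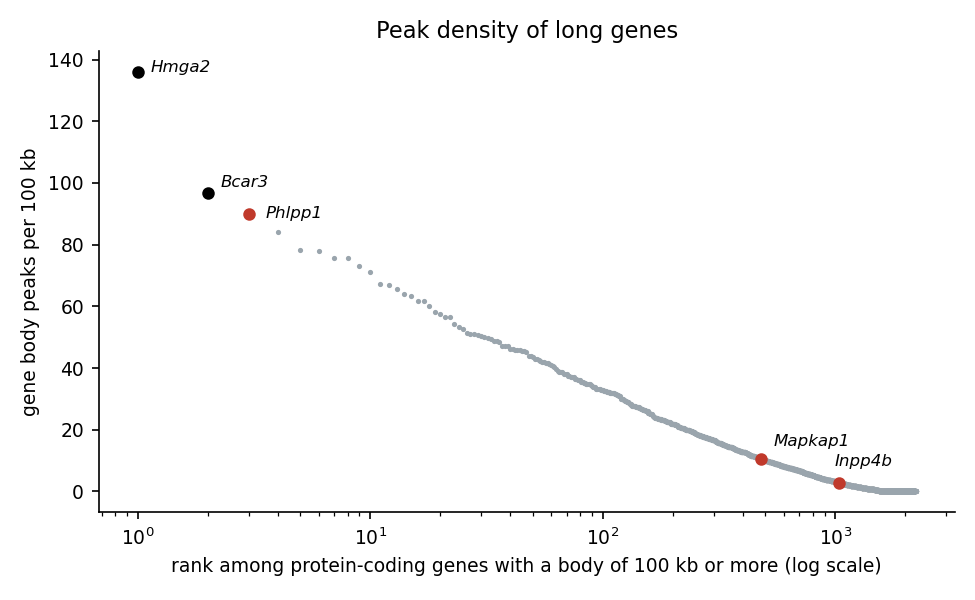
Gene body peaks per 100 kb (vertical axis) against rank on a log scale (horizontal axis) for the 2222 protein-coding genes with bodies of 100 kb or more. Red points are Phlpp1 at rank 3, Mapkap1 at rank 478 and Inpp4b at rank 1036, and black points are the genes above Phlpp1, Hmga2 and Bcar3.

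When peaks less than 12.5 kb apart were joined, all 226 Phlpp1 peaks fell in a single run at chr1:106144490-106409259, 264.8 kb long. It held more peaks than any other of the 22564 runs. The next were a run of 205 peaks over Msi2, an RNA-binding protein, and a run of 161 over Hmga2, which was shorter at 119.6 kb and denser, with 135 peaks per 100 kb against 85.4 for the Phlpp1 run. Beyond the Phlpp1 run the nearest peak lay 66.6 kb past the gene's end and 93.9 kb before its start. The 5 Mb around the gene, without the gene and its flanks, held 40.4 peaks per Mb, against 44.9 in the whole list and 60.7 on chromosome 1.

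Peaks lay along the whole of Phlpp1. Each of its 23 bins of 10 kb held summits, from 2 to 16 with a median of 9, whereas 14 of 22 bins of Mapkap1, a gene of nearly the same length, held none. From the start, successive stretches of 74.1 kb had 87, 55 and 56 body peaks. Intron 1, 107.9 kb long, held 111 summits (103 per 100 kb), intron 3 held 21 (66.2 per 100 kb) and intron 4 held 20 (101 per 100 kb). Of the body summits, 196 were intronic and 2 were exonic. The 24 flank peaks were split evenly, 12 upstream and 12 downstream, at 24.5 per 100 kb, which is 3.67-fold below the body. The median distance between neighboring summits was 713 bp, against 884 bp in the whole list. This median did not set Phlpp1 apart. It was shorter in Akt1 (390 bp), Inpp4b (523 bp), Pik3ca (528.5 bp) and Phlpp2 (582.5 bp). It was longer in Akt2 (772 bp), Mapkap1 (1120 bp) and Pik3r1 (35134 bp). The median rested on 201 distances in Phlpp1, but on 5 in Akt1, 6 in Phlpp2 and 3 in Pik3r1. The longest distance was 10462 bp in Phlpp1. It was shorter in Akt1 (1454 bp) and Akt2 (8215 bp), and longer in the other genes, up to 307496 bp in Inpp4b.

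**Figure D3:**
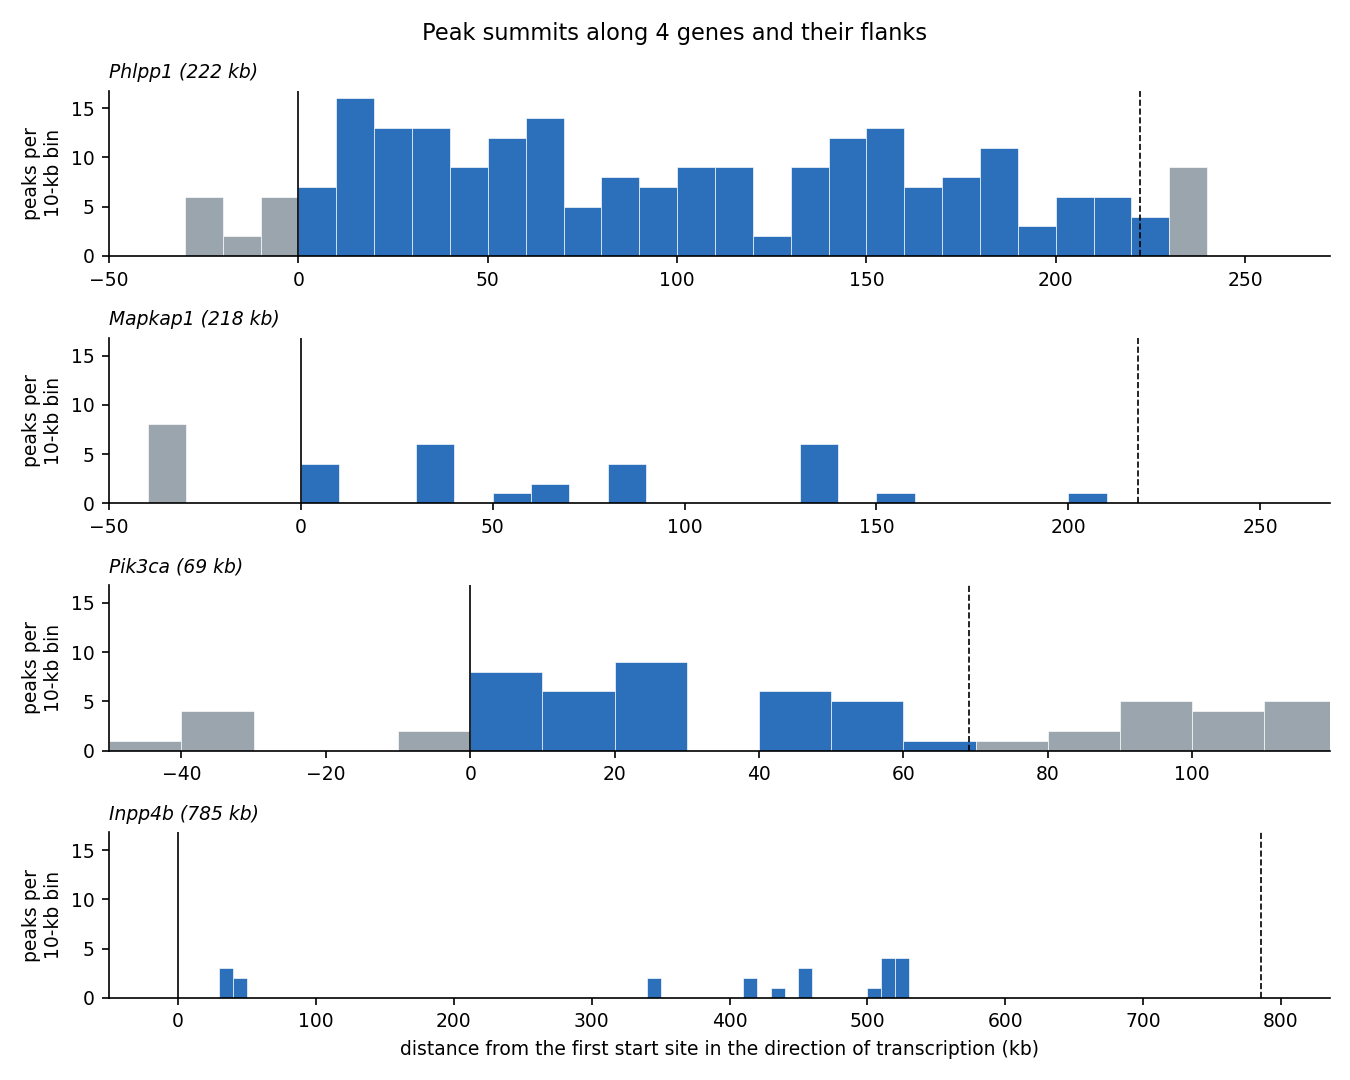
Peak summits per 10-kb bin (vertical axis) against distance from the first start site in the direction of transcription (kb, horizontal axis) for Phlpp1, Mapkap1, Pik3ca and Inpp4b. Blue bins overlap the gene and gray bins the flanks, a solid line marks the start and a dashed line the end, and the length scale differs between panels. Phlpp1 has 2 to 16 summits in each gene bin, and the other genes have gaps.

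The individual Phlpp1 peaks were close to the rest of the list in height. Their median fold enrichment, the ratio to the local background, was 5.17, against 5.22 in the whole list, and 25.7% of the Phlpp1 peaks were among the strongest 25% of the list. The strongest, in intron 3 at chr1:106287801-106289171, had a fold of 16.0 with 41 fragments (Poisson interval 29.4 to 55.6), and the next, in intron 1, had a fold of 14.5 with 36 fragments. Of the 202 promoter and body peaks, 95 had a fold under 5, 97 had 5 to 10 and 10 had 10 or more. Widths reached 5053 bp, at chr1:106300794-106305846, and 23 peaks were 1 kb or wider, while the median body peak was 217 bp wide. The gene's single start site was not itself covered. The nearest summit lay upstream, at -705 bp, with a fold of 4.27, and the strongest promoter peak, with a fold of 9.90, had its summit 2.24 kb downstream, in intron 1. Within 500 bp of the start site the ratio of observed to expected CpG was 1.06, at the 99.4 percentile of 26242 start sites. The upstream window is shared with the start of Gm20753.

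The local background of Phlpp1 peaks was raised. Its median was 1.404 fragments, and 14.2% of the peaks were at the lowest background of 1.05, against 47.5% in the list. For peaks of chromosome 1 as a whole the median background was 1.33 and 20.3% were at the lowest value. Among the genes of like density, Vgll4 and Meis1 also had few body peaks at the lowest background (16.2% and 12.1%), while Hmga2 (55.2%), Bcar3 (52.5%) and Mbnl2 (61.1%) had many. Their chromosomes differed in the same direction. The share was 16.7% on chromosome 6 (Vgll4) and 25.7% on 11 (Meis1). It was 57.5% on 10 (Hmga2), 55.1% on 3 (Bcar3) and 60.5% on 14 (Mbnl2). The part of the local background in the number of peaks was not tested. Repeat sequence made up a median of 15.5% of a Phlpp1 peak and 11.0% of a peak of the list, and median GC content was 40.8% against 45.8%. Homeodomain core letters were in 15 of the 226 Phlpp1 summit windows (6.64%, against 4.27% in the list). The E-box share was near that of the list (17 windows, 7.52% against 7.64%). Shares were lower for AP-1 (11 windows, 4.87% against 5.77%), FOXO (3 windows, 1.33% against 2.40%) and the paired-domain core (2 windows, 0.885% against 1.95%). These shares rest on few windows, and no difference from the list was tested.

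Phlpp2, the paralog of Phlpp1 at chr8:109868603-109944671, had 1 promoter, 6 body and 12 flank peaks. Its body density was 8.10 per 100 kb (2.97 to 17.6), 11.1-fold below that of Phlpp1. The promoter peak had its summit upstream of the start, at -302 bp, with a fold of 5.65 and 12 fragments (6.20 to 21.0). All 6 body peaks sat in a run of 4.31 kb about 50 kb into the gene, where the strongest had a fold of 8.34. The strongest peak near the gene was in the downstream flank, with a fold of 9.02 and 21 fragments.

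Inpp4b, which encodes the phosphatase of the doubly phosphorylated phosphoinositide, is the longest of the genes, at chr8:81342562-82127917. It had 22 body peaks and neither promoter nor flank peaks, at a density of 2.81 per 100 kb (1.76 to 4.25), close to the median of long genes (2.27). The summit nearest to its start was 32.9 kb into the gene, and 70 of its 79 bins of 10 kb were empty. The largest group was 9 peaks over 23.0 kb at chr8:81843983-81867005, which included the strongest, with a fold of 8.36 and 26 fragments (17.0 to 38.1), 512.1 kb from the start. That peak was within 2 kb of the start of a predicted RefSeq model at chr8:81856256, so Inpp4b counted as having a promoter peak when predicted models were used. The CpG ratio at its curated start was 0.579, the median of all start sites.

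Pik3ca encodes the catalytic subunit p110 alpha of PI3K and lies at chr3:32397065-32466107. With 5 promoter, 32 body and 22 flank peaks it had the highest body density of the activators, 47.7 per 100 kb (32.6 to 67.4), which was higher than in 96.4% of the 18595 genes with a body outside promoter windows. Intron 1, 38.6 kb long, held 23 of the summits. Its strongest peak, at chr3:32452954-32454333, had its summit in exon 15 of 21, with a fold of 17.4 and 43 fragments (31.1 to 57.9). The strongest promoter peak had its summit upstream of the start, at -329 bp, with a fold of 8.59 and 28 fragments. Of the 22 flank peaks, 12 overlapped promoters of other genes, namely 4930429B21Rik, Kcnmb3, Zfp639 and Zmat3.

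Pik3r1, which encodes the p85 alpha, p55 alpha and p50 alpha regulatory subunits that bind the catalytic subunit, had the fewest peaks, 2 promoter and 2 body, over chr13:101680761-101768217 on the minus strand. Both promoter peaks lay in the first intron near the distal start at 101768217, with folds of 5.65 and 6.08 and 12 and 13 fragments. The promoter window of the start at 101692630 held no peak, and the summit nearest to it was upstream, at -2444 bp, with a fold of 4.79. The nearest peak outside the gene lay 139.5 kb away. Body density was 2.46 per 100 kb (0.297 to 8.87).

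Akt1 encodes the AKT isoform found in most tissues. Over chr12:112653821-112674884, on the minus strand, it had 6 promoter and 14 flank peaks and no peak in the 18.5 kb outside promoter windows, where 0 peaks allow up to 19.99 per 100 kb (upper Poisson limit). The strongest promoter peak, with a fold of 9.10 and 20 fragments (12.2 to 30.9), had its summit 1.17 kb downstream of a start and is the peak that held the E-box letters. Another, with a fold of 4.76, covered the start at 112674884. Of the flank peaks, 13 were downstream, and 4 of the 14 overlapped the promoter of Siva1. Peak numbers in the list show 4 peaks absent upstream of Akt1, between 112675809 and 112702348, a stretch that takes in the end of its promoter window and part of its flank. Its promoter and flank counts, and the totals of 20, 147 and 414 that include them, are lower bounds.

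Akt2, the isoform best known for insulin-stimulated glucose uptake, had the most promoter peaks, 11, beside 7 body and 13 flank peaks, at chr7:27591552-27640826. It also has the most curated start sites, 4, so that its promoter windows took up 13.5 kb. The windows of these starts held 2, 3, 3 and 6 peaks in order along the gene, with some peaks in more than 1 window. The strongest had a fold of 11.5 with 27 fragments (17.8 to 39.3) and a summit 179 bp downstream of the start at 27605797, and the next had a fold of 11.2 with 37 fragments and covered the start at 27607336. The starts with the strongest peaks were not those with the most CpG: the ratio was 0.793 at the first start and 0.141 to 0.162 at the others. All 13 flank peaks were upstream.

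Mapkap1 encodes SIN1, a subunit of mTORC2. At chr2:34406771-34624958 it had 2 promoter, 23 body and 8 flank peaks, and a body density of 10.6 per 100 kb (6.75 to 16.0), 8.44-fold below Phlpp1. It carried the strongest peak of all 414, an intron peak at chr2:34439865-34442829 that was 2965 bp wide, with a fold of 25.5 and 58 fragments (44.0 to 74.98), ranking 9 in the whole list. By contrast, both promoter peaks had a fold of 5.22 with 11 fragments, which is higher than the strongest promoter peak of only 16.6% of the genes that had any. Of the 8 flank peaks, all upstream, 2 overlapped the promoter of Pbx3. Between the last Mapkap1 peak and the next peak of the list, 189.3 kb further, 2 peak numbers were absent, and where they lay is not known.

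**Figure D4:**
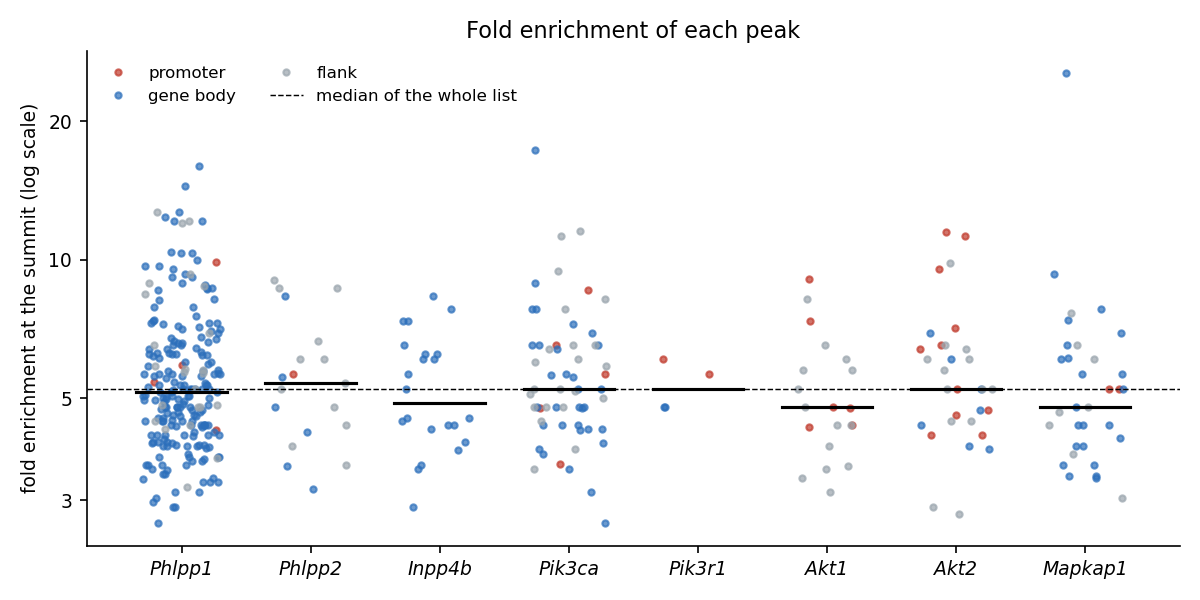
Fold enrichment at the summit (log scale, vertical axis) of each of the 414 peaks, by gene, with color showing the class and points spread sideways for clarity. Black bars are the medians of each gene, from 4.77 in Akt1 to 5.39 in Phlpp2, and the dashed line is the median of the list, 5.22. The highest point is the Mapkap1 intron peak at 25.5.

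Compared as groups, phosphatase gene bodies held 226 peaks in 1078 kb, or 20.97 per 100 kb (18.3 to 23.9), and activator bodies 64 in 420.8 kb, or 15.2 per 100 kb (11.7 to 19.4). The ratio was 1.38, which is a description, since Phlpp1 was chosen for its peaks and supplied 198 of the 226. It rested on Phlpp1: without it the phosphatases had 3.27 per 100 kb and the ratio was 0.215, and without both Phlpp1 and Pik3ca, the densest gene of the other group, it was 0.361. Counting promoter windows with the bodies, which gives weight to the short genes Akt1 and Akt2, brought the ratio to 1.07. In that count the order was Phlpp1 with 90.0 peaks per 100 kb, Pik3ca with 52.1, Akt2 with 35.1, Akt1 with 26.0, Mapkap1 with 11.4, Phlpp2 with 8.97, Pik3r1 with 4.47 and Inpp4b with 2.79. By body density alone, and leaving Phlpp1 aside, the counting interval of Pik3ca (32.6 to 67.4) overlapped only that of Akt2 (7.46 to 38.2). Those of Akt1, Akt2, Mapkap1, Phlpp2 and Pik3r1 all overlapped each other. That of Inpp4b overlapped those of Akt1, Phlpp2 and Pik3r1.

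At promoters the activators had more as a group. All 5 activators and 2 of 3 phosphatases had a promoter peak, with 26 and 5 promoter peaks in all, or 5.20 and 1.67 per gene. At a -log10 q of at least 5 Mapkap1 no longer had a promoter peak. The activators have 11 start sites and the phosphatases 3, and per 100 kb of promoter window the counts were 75.9 and 41.7. The phosphatase value rests on 5 peaks, of which Phlpp1 supplied 4 and Phlpp2 1. No interval was computed for these promoter densities, so the higher activator value is a description and a group difference was not tested. By gene the groups overlapped: Akt1 had 130.2, Pik3ca 125.0, Phlpp1 99.98, Akt2 81.2, Mapkap1 49.0, Pik3r1 and Phlpp2 24.99 each, and Inpp4b 0. The strongest promoter peaks, from highest fold, were Akt2 (11.5), Phlpp1 (9.90), Akt1 (9.10), Pik3ca (8.59), Pik3r1 (6.08), Phlpp2 (5.65) and Mapkap1 (5.22). The Phlpp1 peak reached the promoter window only by its edge, with its summit at 2.24 kb. The other Phlpp1 promoter peaks had folds of up to 5.89 and overlapped the promoter window of Gm20753. The median over the 9569 genes with a promoter peak was 7.24, so 4 of the 7 were above it, Phlpp1 by the 9.90 peak alone. Over all peaks the median folds were close, at 5.20 for phosphatases and 5.22 for activators, a difference of -0.0226. Of the 267 phosphatase peaks, 226 were those of Phlpp1. The value of 5.22 recurs because 11 fragments over the lowest background give it. Phosphatase peaks were less often at the lowest background, 19.5% against 53.7%, but without Phlpp1 the share was 48.8%. The AP-1 letters were in 2 activator summit windows (1.36%) and 14 phosphatase windows (5.24%), with 5.77% in the list. Median GC content was 45.8% in activator peaks and 41.0% in phosphatase peaks.

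Of 42 other genes of the pathway, 30 had a promoter peak (45.6% of all genes did). A peak in the span or flanks was present in 39 (77.8% of all genes). By role, a promoter peak was present in 5 of 6 other lipid phosphatases, with Inpp5d lacking it, in 5 of 9 other PI3K subunits, in 7 of 10 kinases and mTOR complex members, and in 6 of 9 AKT substrates and their effectors. The remaining group, of adaptors, PP2A subunits and AKT-binding proteins, had 7 of 8, all but Irs2. In the 31 genes with bodies of 20 kb or more the median density was 7.78 per 100 kb, against 2.14 over 8807 genes of that size. This excess was not shared by all roles. The median was 2.06 in 8 PI3K subunits and lower still in 3 lipid phosphatases, both below 2.14. It was 10.3 in 8 kinases and mTOR complex members, 14.3 in 6 AKT substrates and effectors, and 33.9 in 6 genes of the remaining group. The densest of the 31 genes was Irs1, the insulin receptor substrate, with 106.5 peaks per 100 kb. Next came the PP2A genes Ppp2ca with 54.7 and Ppp2r2a with 47.9, then the transcription factor gene Foxo3 with 35.5. Rheb, the GTPase that activates mTORC1, followed with 34.6. Irs1 lies on chromosome 1, as Phlpp1 does. The strongest promoter peaks were those of Gsk3b, a kinase inhibited by AKT, with a fold of 14.8, Ppp2ca with 10.4, Inpp5k with 9.20, Inppl1 with 8.31, and Pdpk1, which encodes PDK1, and Foxo1, the gene that gives its part to the fusion, level at 8.24.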

How the data were processed

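The authors mapped CUT&RUN read pairs to mm10 and called peaks against IgG. The methods name bowtie and an early MACS, and the submitters' processing notes name BWA, SAMtools and MACS2, so the steps behind the deposited list are not settled here. Peak names in the list carry the number in the label of MCP H3K27ac replicate 5. The deposited list gives the authors' fold, a ratio to the local background, their -log10 p-value and -log10 q-value, and a score made from q. The largest q was 0.0471. Peak numbers show 584 peaks absent.

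Fragments over each summit were recovered from the fold and p columns with the caller's formula and 1 scale, 0.885, which solved 100.0% of the peaks within 0.01 (5.07% with the scale 3% off); 91.3% had a unique solution. They are inferences, not counts of reads, and intervals cover counting error only. The intervals of densities treat peaks as independent, although peaks often lay in groups. The depth of the library is unknown. Spans, start sites and exons came from curated RefSeq transcripts of GRCm38 (mm10), and 1 bp of overlap assigned a peak. Python 3.11.15, pandas 2.3.3, scipy 1.17.1 and pysam 0.24.0 were used, and class assignment and fragment recovery were tested on simulated data.

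No test was made, since peaks of 1 library are not replicates. All 8 genes are named. Of the other pathway genes the 5 densest and the 5 with the strongest promoter peaks are named, with a gene tied for the last place, and of long genes the 5 nearest to Phlpp1 in density on either side, of which only 2 exist above. The members and lists were chosen with earlier results of these data known. Alternatives changed the promoter and flank width, the peak threshold, the transcripts, the genes counted and the unit of density.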

Additional observations from a re-analysis of the deposited data

How the results depend on the processing

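Of 103 values recomputed under alternatives, 73 stayed within 1.5 times the count or within the interval of the main value, 28 moved and 2 reversed. For the median fold difference that interval was taken over the 267 phosphatase and 147 activator peaks, treated as independent although they are not replicates. Some values could not change, such as phosphatase counts when an activator was left out. Group densities in another unit were counted as moved by rule. The tally is therefore no measure of robustness. The ratio of phosphatase to activator body density reversed to 0.215 without Phlpp1 and to 0.361 without Phlpp1 and Pik3ca, the genes with the most peaks of their groups. Without Phlpp1 the phosphatases kept 41 peaks and 3.27 body peaks per 100 kb. Without Pik3ca the activators kept 88 peaks and 9.05 per 100 kb, and the ratio was 2.32. Without Mapkap1 the activator density was 20.0, and with promoter windows counted with the bodies it was 19.8. At a -log10 q of at least 5 there were 133 phosphatase and 70 activator peaks, at 9.74 and 6.18 per 100 kb, and 92 body peaks of Phlpp1, and 6 genes had a promoter peak, with Mapkap1 lost. In the strongest 25% of the peaks these numbers were 68, 38, 5.01, 3.80 and 48, 4 genes had a promoter peak (Phlpp1, Pik3ca, Akt1 and Akt2), and the median fold of the phosphatases exceeded that of the activators by 0.611. These settings keep fewer peaks, and in the strongest 25% Phlpp1 counted only through the peak with its summit 2.24 kb from the start. Measured as bases covered per 100 kb, the densities were 9052 and 4837 with a ratio of 1.87. Divided by the density of each gene's own chromosome, they were 3.64 and 3.34 times that density, and the ratio was 1.09. Leaving out Pik3ca, alone or with Phlpp1, counting promoter windows with bodies and GENCODE transcripts were added after seeing the data. No paired analysis was possible because a single library was used.

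The median summit of the 414 peaks rested on 13 fragments, and 1 library gives no spread between tumors, so no difference between the 8 genes was set against replicate error.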
